A study of Mus musculus with 9 samples.

Results

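Cytosolic ribosomal protein genes encode the protein part of the ribosome that translates nuclear mRNAs. The family was taken by name: gene symbols made of Rpl or Rps, a number and an optional letter, together with Rplp0, Rplp1, Rplp2 and Rpsa, without the S6 kinases and without rows named as pseudogenes. The rule found 84 of the 23799 genes in the table, 51 of the large subunit and 33 of the small subunit. Of these, 77 are core subunit genes (46 large, 31 small) and 7 are paralogs with restricted or little studied roles, namely Rpl3l, Rpl7l1, Rpl10l, Rpl22l1, Rpl39l, Rps27l and Rps4y2. The row named Rps4y2 carries the identifier ENSMUSG00000063171, which the annotation names Rps4l and classes as a transcribed processed pseudogene. The row named Rpl24 carries ENSMUSG00000022601, which the annotation gives to Zbtb11, so its values may hold reads of that neighbour. Rps3a carries the identifier of Rps3a1, a newer symbol of the same gene.

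RNA sequencing covered 9 libraries, each of cells sorted for a fluorescent tumour label, from mouse models of breast cancer (BC) and pancreatic ductal adenocarcinoma (PDAC). The 4 BC libraries, which are primaries 1 and 5 and the metastases to lung 4 and 6, held GFP-positive cells derived from 4T1-eGFP at 28 days. 4T1 is a mouse mammary carcinoma line, so all 4 BC libraries descend from 1 line. The PDAC groups, 2 primary tumours and 2 liver metastases (numbers 1 and 5 in each) and 1 lung metastasis (number 1), held YFP-positive cells of mice with p48-Cre, p53F/+, KrasL/+ and ROSA-LSL-YFP. The p48 driver acts in the pancreatic lineage, and the reporter marks every cell in which the recombinase acted together with its descendants. PDAC number 1 also carried SIRT6F/F and was 25.67 weeks old, and number 5 lacked it and was 28.95 weeks old, so genotype and age cannot be told apart. The comparisons ask how primary tumours and metastases differ in each model and how the models differ.

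A ribosome has a small subunit, which reads the mRNA, and a large subunit, which joins amino acids, and each holds 1 copy of nearly every core protein. Their genes are among the most highly transcribed of a growing cell and are held close to equal output. Their mRNAs typically start with a C followed by a run of pyrimidines, the 5′ terminal oligopyrimidine (TOP) motif, through which mTORC1 and LARP1 control their translation.

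Some libraries stood apart before any comparison. Few genes were above 0 in BC lung metastasis 6 (10938), PDAC primary 5 (10410) and the PDAC metastasis to lung (9530), against 12144 to 20478 in the other 6. Values were RPKM, read counts divided by gene length and library depth, and the reads estimated to lie on genes ranged from 21300000 to 128000000. Haemoglobin genes took 10.9%, 38.9%, 20.1% and 38.6% of all RPKM in PDAC primary 1, both PDAC liver metastases (1, then 5) and the PDAC library from lung, and 0.107% or less in the other 5. Epithelial markers (Epcam, Krt7, Krt8, Krt18, Krt19, Cdh1) summed to 221 RPKM in PDAC liver metastasis 5 and 132 RPKM in the PDAC lung metastasis, against 2215 to 14180 RPKM elsewhere, so the tumour cell label has little support in these 2 libraries. Neutrophil markers summed to 215800 RPKM in PDAC liver metastasis 5, and lung epithelial markers to 35870 RPKM in the PDAC lung metastasis. With the floxed label, Sirt6 was at 3.49 and 2.91 RPKM in PDAC primary 1 and liver metastasis 1, and listed at 0 in the PDAC lung metastasis. Without that label, Sirt6 was at 2.23 RPKM in liver metastasis 5 and listed at 0 in PDAC primary 5. Both libraries that list it at 0 are the ones with the fewest genes above 0 (9530 and 10410).

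The clearest difference between the models lay in Rps4y2, so its sequence is shown beside that of the gene it copies. Rps4x, on chromosome X, encodes the small subunit protein S4, and Rps4l (the Rps4y2 row) lies on chromosome 6. The Rps4l transcript matched the Rps4x coding sequence at 80% of 786 aligned bases, with 157 mismatches, and the longest identical run was 35 bases. The 75 aligned bases with the most mismatches (23) were coding positions 36 to 110 of Rps4x and transcript positions 90 to 164 of Rps4l, from GENCODE M21, written 5′ to 3′ with mismatches in capitals.
Rps4x: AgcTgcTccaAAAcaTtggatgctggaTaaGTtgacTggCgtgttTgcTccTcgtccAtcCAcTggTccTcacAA
Rps4l: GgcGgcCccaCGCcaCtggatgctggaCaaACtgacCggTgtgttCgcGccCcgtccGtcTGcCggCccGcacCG
An aligned stretch of more than 35 bases therefore held at least 1 mismatch between the genes. How reads that match more than 1 place were counted is not given in the sources used here.

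Transcription starts of members are shown because the TOP motif is the shared sequence feature of the family. A start was counted as TOP where the first transcribed base was C and the next 4 or more were C or T, on the gene's strand only, in RefSeq promoters of GRCm38.p6. A gene with several listed starts was counted if any of them had the motif. Of 57 core members with a listed start, 13 (22.8%) had it, against 813 of 27025 genes (3.01%), 0 of 69 mitochondrial ribosomal protein genes and 0 of 6 paralogs. No entry was matched for 21 members. A start listed some bases away from the one used would miss the motif, and with a start anywhere within 5 bases 27 core members (47.4%), 17 mitochondrial ribosomal protein genes (24.6%), 2 paralogs (33.3%) and 5718 genes in all (21.2%) held it. Each line gives 15 bases before and 15 after the listed start, 5′ to 3′ on the gene's strand, with the TOP run in capitals where there was one.
Rps6 (chr4:86857353-86857382, minus strand): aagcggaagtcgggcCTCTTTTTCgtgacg
Rps27 (chr3:90213634-90213663, minus strand): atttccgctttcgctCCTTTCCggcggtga
Rpl15 (chr14:18270972-18271001, minus strand): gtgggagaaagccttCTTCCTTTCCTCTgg
Rpl35a (chr16:33056467-33056496, plus strand): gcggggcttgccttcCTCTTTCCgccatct
Rps15a (chr7:118116133-118116162, minus strand): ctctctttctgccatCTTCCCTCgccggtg
Rpl26 (chr11:68901551-68901580, plus strand): ctcgcggcaacttacagaaccggaagtcgc
Rpl22l1 (chr3:28805493-28805522, plus strand): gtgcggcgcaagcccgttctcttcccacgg
Rpl7l1 (chr17:46782642-46782671, minus strand): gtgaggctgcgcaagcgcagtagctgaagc
Of these 8, the first 5 are core genes with a TOP start, Rpl26 is a core gene without one at the listed base, and the last 2 are paralogs. Rpl35a has other listed starts, with windows that begin at 33056438 and 33056499, and those held no TOP run.

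All 77 core genes were at 1 RPKM or more in every library, and the family's total level differed between libraries. The members summed to 10810 and 11030 RPKM in BC primaries 1 and 5, and to 12110 and 29380 RPKM in BC lung metastases 4 and 6. They summed to 15660 and 17440 RPKM in PDAC primaries 1 and 5, to 20320 and 9475 RPKM in PDAC liver metastases 1 and 5, and to 8222 RPKM in the PDAC lung metastasis. The highest and lowest sums thus differed 3.57-fold, and both came from metastases. Within the BC lung metastases 76 of 77 core genes were higher in number 6 than in number 4 (median ratio 2.43), and within the PDAC liver metastases 76 of 77 were higher in number 1 than in number 5 (median ratio 2.11). The median member was alike in both primaries of a model, with median ratios (number 5 to 1) of 1.04 (BC) and 1.06 (PDAC). Single members differed, with 41 (BC) and 47 (PDAC) of 77 core genes higher in number 5. The SD of their log2 ratios was 0.337 in BC and 0.602 in PDAC, against 0.404 for BC lung metastasis 6 to 4.

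**Figure D1:**
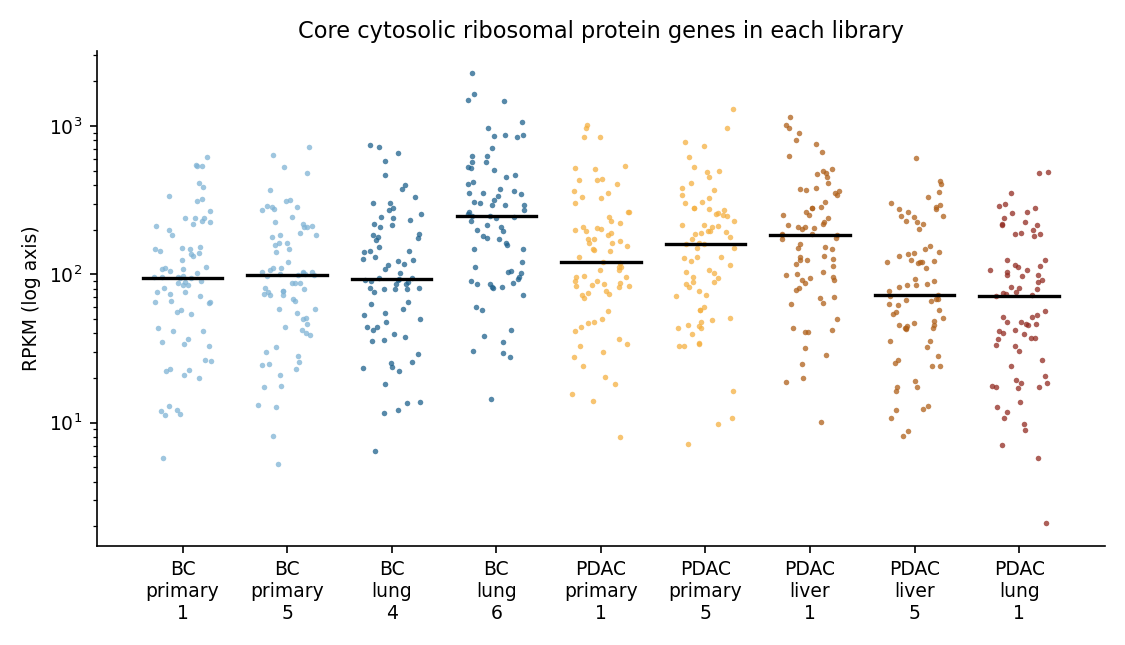
RPKM (log axis) of the 77 core genes in each of the 9 libraries; each point is a gene and the black line is the median over genes. The median is 246 RPKM in BC lung metastasis 6 and 71.4 and 72.7 RPKM in the PDAC lung metastasis and PDAC liver metastasis 5, the highest and the lowest of the 9.

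As a share of all RPKM, which scales each library to its own total, the family made up 2.87% and 3.83% of the BC primaries and 3.10% and 5.38% of BC lung metastases 4 and 6. It made up 2.81% and 3.67% of PDAC primaries 1 and 5, 2.21% and 0.955% of liver metastases 1 and 5, and 0.889% of the PDAC lung metastasis. The low end of the range was therefore held by the libraries with the fewest epithelial transcripts. Without haemoglobin genes the share of liver metastasis 1 was 3.61%, inside the range of the primaries, while liver metastasis 5 and the lung metastasis stayed at 1.19% and 1.45%. The part of neutrophil, erythroid and lung cell RNA in these shares was not tested, and in bulk samples fewer cells of a type and less RNA per cell cannot be told apart. The ratio of the family's sum to that of 76 mitochondrial ribosomal protein genes, which serve a separate ribosome, lay between 3.05 and 5.04, a 1.65-fold range. The share itself ranged 6.05-fold, 4.51-fold without haemoglobin genes and 3.31-fold without the 50 highest genes outside the family.

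**Figure D2:**
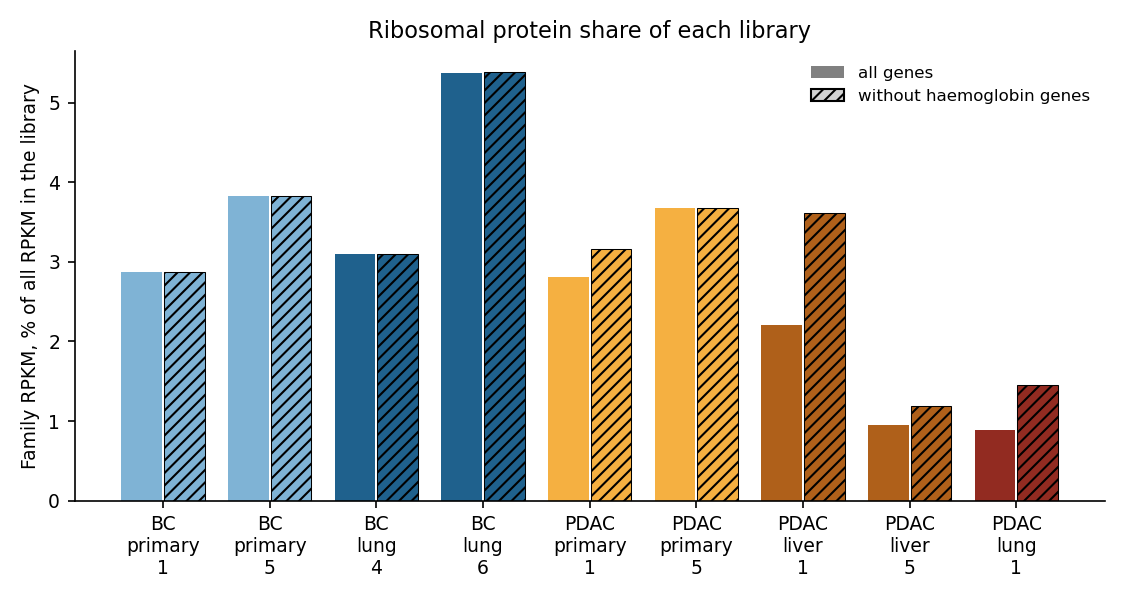
Summed RPKM of the 84 members as a percent of all RPKM in each library (plain bars) and as a percent after haemoglobin genes were left out (hatched bars). BC lung metastasis 6 is highest at 5.38%, and PDAC liver metastasis 5 and the PDAC lung metastasis are lowest under both scalings.

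Large subunit genes supplied 54.1% to 58.4% of the family's RPKM over the 9 libraries, and the paralogs 1.91% to 5.16%. Rpl32, a large subunit gene, had the highest median level (491 to 1497 RPKM), followed by Rpl4 (255 to 977 RPKM). RPKM divides by the length of a gene model, which for several members includes retained introns, so the order of members depends on the models used. Of the 82 members that passed the filter of 1 RPKM in at least 2 libraries, 41 correlated above 0.8 with the median log2 value of the other members over the 9 libraries (median Pearson r 0.802). This holds for 1.95% of 12682 other genes, and depth and scaling of a library are shared by all its genes. The members least like the rest were Rpl3l (r -0.37), Rpl7l1 (-0.36), Rps4y2 (0.08), Rps9 (0.10), Rpl26 (0.21), Rpl22l1 (0.22) and Rpl4 (0.36), which include 4 of the paralogs. The genes outside the family with the most similar pattern were Rps16-ps2 (r 0.98), Gm8129 (0.97), Gm12350 (0.97), Rpl10a-ps1 (0.97) and Gm14284 (0.97), at 0.725 to 17.2 RPKM. The 155 rows named as ribosomal protein pseudogenes together held 113 to 412 RPKM per library, so some reads of members may be counted there.

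In the BC lung metastases 78 of 82 members had positive log2 differences from the primaries, with a median of 0.73 where the median of all genes was -0.29. No member passed limma at an adjusted p under 0.05, as no gene did (0% of 12832), and 0 members had an unadjusted p under 0.05 against 2.07% of genes. Libraries did not overlap between the groups for 35 members that were higher in the metastases and 1 that was lower, against 15.8% and 27% of all genes. Neutrophil markers, all 8 above 0 in each BC library, summed to 2501 and 1541 RPKM in metastases 4 and 6. In the primaries they summed to 28.3 and 28.5 RPKM. At 1 RPKM or more were 8 and 4 of them in metastases 4 and 6, and 4 and 5 in primaries 1 and 5. In metastasis 6 S100a8, S100a9, Retnlg and Ngp were at 69.7 to 939 RPKM, and Camp, Ltf, Cxcr2 and Csf3r at 0.926 RPKM or less. The part of neutrophil RNA in the differences was not tested. The size of the median rested on 1 library. Without metastasis 6 the median was 0.11, and without metastasis 4 it was 1.31.

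Both subunits took part to a like degree, with medians of 0.73 over the 46 core large subunit genes and 0.74 over the 31 small ones. The difference from all genes shrank where libraries were put on a common distribution, to a median of 0.24 against 0.07. With haemoglobin genes left out and every library rescaled to the same total, the medians were 0.25 and -0.64. Rps27l, a paralog of Rps27 that responds to p53, measured 212 and 189 RPKM in primaries 1 and 5, and 370 and 808 RPKM in metastases 4 and 6. Its log2 difference of 1.45 ± 0.78 (SE, n = 2 against 2; limma adjusted p = 0.974) did not pass. Rplp1, a stalk protein that recruits elongation factors, was at 536 and 485 RPKM and at 740 and 2269 RPKM (1.34 ± 0.67; limma adjusted p = 0.974). Rps27, a zinc finger protein of the small subunit, was at 228 and 314 RPKM and at 374 and 1065 RPKM (1.24 ± 0.63; limma adjusted p = 0.974). In each of these 3 genes both metastases lay above both primaries, and metastasis 6 was well above metastasis 4.

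Against metastasis 4, the members of metastasis 6 differed by coding length. Over the 77 core genes the log2 ratio of metastasis 6 to 4 fell with coding length (Spearman rho -0.50, Pearson r -0.58, across genes of 1 pair of libraries, with no test). The 27 genes of at most 405 coding nucleotides had a median of 1.45 and the 26 of at least 576 a median of 1.08. Rpl41, the shortest at 75 coding nucleotides, was at 233 and 868 RPKM in metastases 4 and 6. Rpl4, the longest, was at 656 and 630 RPKM, and was the 1 core gene that was not higher in metastasis 6. In other pairs rho was -0.40 for PDAC primary 5 against 1 and -0.32 for PDAC lung against liver metastasis 1. It was -0.29 for PDAC liver metastasis 5 against 1 and -0.18 for BC primary 5 against 1. The sign depends on which library comes first, and no common rule set that order, so equal signs are not agreement. The median log2 ratio was 1.27 for BC lung metastasis 6 to 4, but -1.07 for PDAC liver metastasis 5 to 1 and -1.3 for PDAC lung to liver metastasis 1. Metastasis 6 and PDAC primary 5 listed fewer genes than the library they were set against, while liver metastasis 5 listed more than liver metastasis 1 (18717 against 12144), and the part of the number of genes in the relation was not tested.

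**Figure D3:**
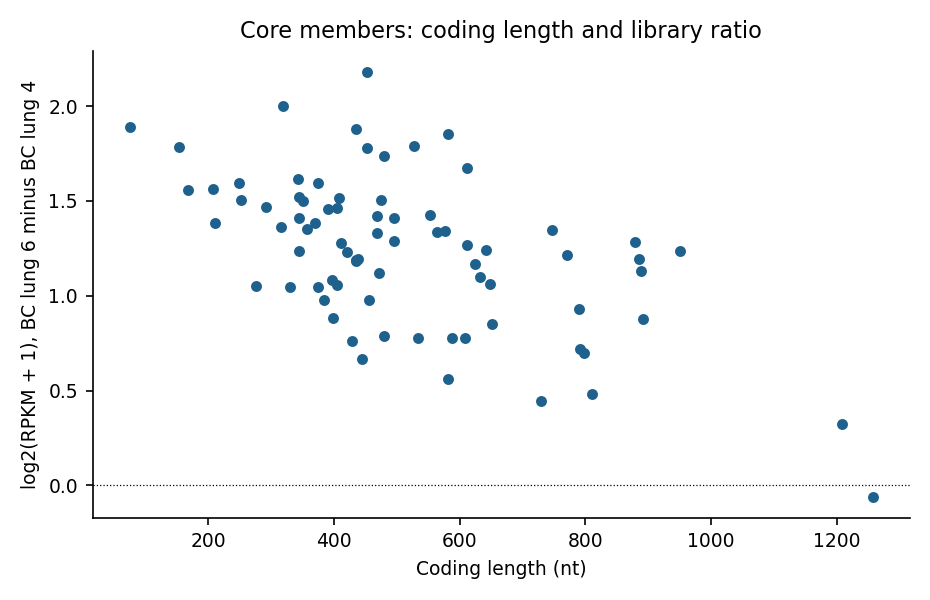
Coding length in nucleotides (x axis) and the difference in log2(RPKM + 1) between BC lung metastases 6 and 4 (y axis) for the 77 core genes, 1 point each. Short genes lie higher, with a median of 1.45 up to 405 nucleotides against 1.08 from 576 nucleotides, and Rpl4 lies just below 0.

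In the PDAC liver metastases 24 of 82 members had positive differences from the PDAC primaries and the median was -0.19, with 0.08 for all genes. No member passed limma (0.00779% of 12832 genes did), and 1 had an unadjusted p under 0.05 (6.4% of genes). Libraries did not overlap for 3 members that were higher and 6 that were lower, against 15.4% and 10.2% of all genes. The sign of the median was set by which metastasis was used, at 0.39 without number 5 and -0.71 without number 1.

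Rps9, which lines the mRNA channel of the small subunit, measured 262 and 213 RPKM in PDAC primaries 1 and 5, and 366 and 424 RPKM in liver metastases 1 and 5. Its difference was 0.73 ± 0.54 (SE, n = 2 against 2; limma adjusted p = 0.878). Among core members it was least like the others, being high in liver metastasis 5 where most members were low. Rps15a was at 8.03 and 7.13 RPKM against 10.1 and 8.85 RPKM (0.29 ± 1.03; limma adjusted p = 1). Lower without overlap were Rpl13a, whose protein silences inflammatory mRNAs when released from the ribosome, at 196 and 214 against 154 and 86.6 RPKM (-0.82 ± 0.61; limma adjusted p = 0.88), and Rps19, a gene mutated in Diamond-Blackfan anaemia, at 95.9 and 107 against 87.0 and 43.4 RPKM (-0.71 ± 0.71; limma adjusted p = 0.917). Rpl8, a protein near the peptidyl transferase centre, was at 408 and 411 against 306 and 224 RPKM (-0.64 ± 0.58; limma adjusted p = 0.902). Liver metastasis 5 was the lower of the pair in all 3.

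In the PDAC lung metastasis, a single library, 72 of 82 members were below the mean of the primaries. The median was -1.07 against -0.50 for all genes. No member passed limma (0.584% of genes did, 0.171% higher), and 10 had an unadjusted p under 0.05 (13.8% of genes). The lung value lay below both primaries for 69 members and above both for 6, against 34.4% and 23.9% of all genes. The median stayed between -1.29 and -0.86 under every alternative run. This is the library with the lowest epithelial marker sum, and the lone library is assumed to vary like the other groups in the fit.

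Among the lowest members were Rps26, at 227 and 192 RPKM in the primaries and 26.3 RPKM in the lung metastasis (-2.95 ± 0.84, SE, n = 1 against 2; limma adjusted p = 0.148), and Rpl7a, at 69.5 and 72.8 against 10.8 RPKM (-2.62 ± 0.84; limma adjusted p = 0.2). Rps26 is a small subunit protein known from Diamond-Blackfan anaemia, and Rpl7a is a large subunit protein. Neither overlapped with the primaries, which were close to each other, while Rpl32, the most abundant member, was at 1015 and 1306 against 491 RPKM. Above both primaries lay Rpl3l, a striated muscle paralog of Rpl3, at 0.44 RPKM and listed at 0 against 13.7 RPKM (3.62 ± 0.86; limma adjusted p = 0.0897). Rpl22l1, the paralog of Rpl22, was at 76.7 and 24.2 against 84.8 RPKM (0.96 ± 1.08; limma adjusted p = 0.725). Rpl37 was at 118 and 150 against 191 RPKM (0.52 ± 0.80; limma adjusted p = 0.786). Without PDAC primary 1 the difference of Rpl3l was 3.88 ± 0.97 (n = 1 against 1), and each arm is then a lone library assumed to vary like the other groups. Rpl3l reached 1 RPKM only in PDAC metastases, so it passed the filter through the side where it is high.

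**Figure D4:**
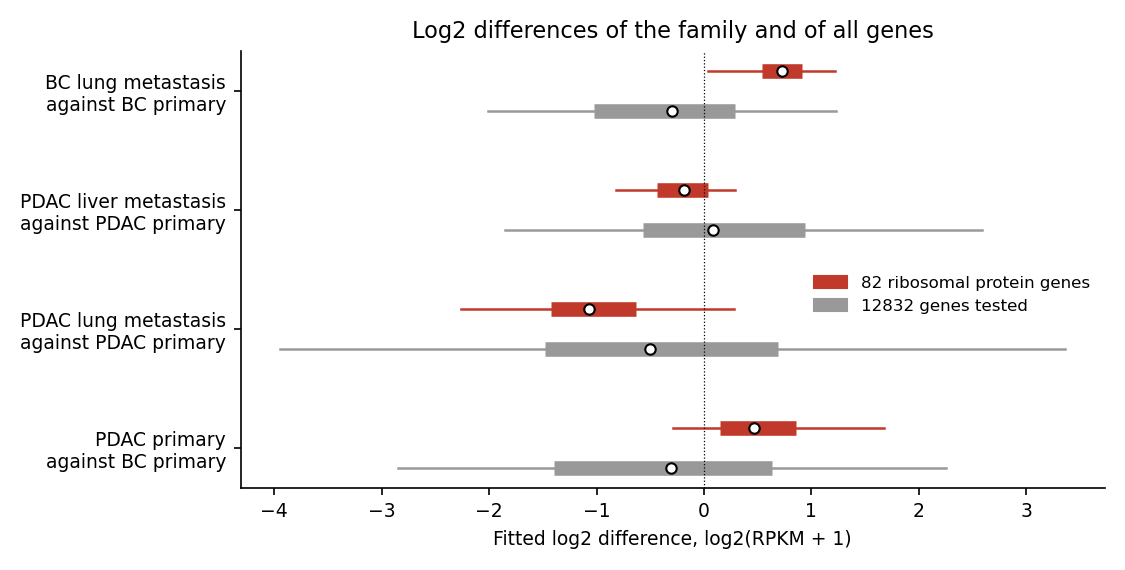
Fitted differences on the log2(RPKM + 1) scale for 82 ribosomal protein genes (red) and 12832 genes tested (grey) in 4 comparisons; the point is the median, the thick bar the 25th to the 75th percentile and the thin line their 5th to 95th percentile. The members sit above all genes in the BC lung and the primary tumour comparison (medians 0.73 and 0.47, the second near 0 under the other scalings) and below them in the PDAC lung comparison (-1.07 against -0.50).

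Between the primary tumours of the models 67 of 82 members were higher in PDAC, with a median of 0.47 where all genes had -0.31. No member passed limma (0.0312% of genes did), and 5 had an unadjusted p under 0.05 (13.2% of genes). Libraries did not overlap for 49 members that were higher in PDAC and 7 that were lower, against 15.7% and 31.5% of all genes. B and plasma cell markers (5) summed to 33380 RPKM in PDAC primary 1, with all 5 above 0, to 2.13 RPKM in PDAC primary 5, with Cd79b and Ms4a1 at 0, and to 8.98 and 16.8 RPKM in the BC primaries. Their part in the differences was not tested. The sign of the median depended on scaling, at -0.02 with a common distribution (all genes 0.05). It was -0.08 (all genes -0.75) with haemoglobin genes left out and every library rescaled to the same total. Under these 2 scalings the number of members higher in PDAC was 40 and 37. Before scaling, all RPKM summed to 377200 and 288200 in the BC primaries (1, then 5) and to 557100 and 474800 in those of PDAC.

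Rps4y2 had the largest difference, but it passed the filter only through PDAC libraries, the side where it is high. BC primaries 1 and 5 held 0.316 and 0.429 RPKM of it and PDAC primaries 1 and 5 held 45.8 and 523 RPKM (log2 6.84 ± 1.37, with 2 libraries against 2; limma adjusted p = 0.148). The 2 PDAC primaries differed from each other more than 10-fold, and without PDAC primary 1 the limma adjusted p was 0.00781 (8.58 ± 1.23, n = 1 against 2). In that fit 6.54% of genes passed, and the PDAC arm is the lone primary 5, assumed to vary like the other groups. Rpl26, a large subunit protein that also binds p53 mRNA, was at 12.2 and 8.11 against 90.8 and 102 RPKM (3.15 ± 0.82; limma adjusted p = 0.199). Rpl29 was at 23.1 and 20.9 against 96.1 and 186 RPKM (2.55 ± 0.93; limma adjusted p = 0.297). Lower in PDAC without overlap were Rpl7l1, a paralog of Rpl7 that acts in ribosome assembly, at 75.2 and 59.3 against 45.4 and 20.8 RPKM (-1.09 ± 0.78; limma adjusted p = 0.555), Rps15a at 11.2 and 12.8 against 8.03 and 7.13 RPKM (-0.60 ± 1.03; limma adjusted p = 0.816) and Rpl15 at 55.5 and 46.2 against 34.1 and 34.6 RPKM (-0.55 ± 0.80; limma adjusted p = 0.776).

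With all 5 PDAC and all 4 BC libraries in 1 fit that adjusts for metastasis, a comparison added after the data were seen, Rps4y2 and Rpl26 rose in PDAC. They were 2 of 82 members, where 2.97% of genes passed (1.13% higher in PDAC), and 4 members had an unadjusted p under 0.05 (19.9% of genes). Libraries did not overlap for these 2 and, lower in PDAC, for Rps15a and Rpl7l1, against 2.72% and 6.23% of genes. Rps4y2 measured 113 and 16.0 RPKM in PDAC liver metastases 1 and 5, 41 RPKM in the lung library of PDAC, 0.180 RPKM in BC lung metastasis 4 and listed at 0 in BC lung metastasis 6. Its lowest PDAC library was 37.2 times its highest BC library. Every BC library was under the 1 RPKM of the filter, so Rps4y2 entered the test through PDAC alone. Its separation is therefore a description and not independent support. The difference was 6.01 ± 0.93 (SE, n = 5 against 4; limma adjusted p = 0.00443), and it passed in all 16 alternatives run (limma adjusted p 0.0029 to 0.0254). Here and below n counts libraries, not animals. PDAC libraries carry only numbers 1 and 5, and same-numbered ones may share a mouse, so they need not be independent. Rps4x, the parent gene, overlapped between the models, at 90.5 to 173 RPKM in BC and 45.8 to 218 RPKM in PDAC (-0.01 ± 0.52; limma adjusted p = 0.991). As a part of the sum of both genes, Rps4y2 made up 15.9% to 80.1% in PDAC and 0% to 0.411% in BC.

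In BC lung metastases 4 and 6 Rpl26 measured 11.6 and 27.6 RPKM. PDAC liver metastases 1 and 5 had 124 and 43.7 RPKM, and the lung library of PDAC had 75.5 RPKM. Every PDAC library was above every BC library, the lowest against the highest by 1.58-fold. The difference was 2.52 ± 0.59 (n = 5 against 4; limma adjusted p = 0.0378), and it passed in 7 of 16 alternatives (limma adjusted p 0.021 to 0.142). Its log2 difference stayed between 2.05 and 2.91 in these alternatives. The adjusted p was above the threshold without BC primary 1 (0.106), BC primary 5 (0.122), BC lung metastasis 4 (0.142), PDAC primary 1 (0.0914), PDAC liver metastasis 1 (0.0872) or the PDAC lung metastasis (0.0522), and also with no filter (0.0754), after rescaling without haemoglobin genes (0.0734) and with the replicate block over PDAC numbers (0.0757). Host strain, tissue of origin and fluorescent label differ between the models together with tumour type, and these cannot be told apart.

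**Figure D5:**
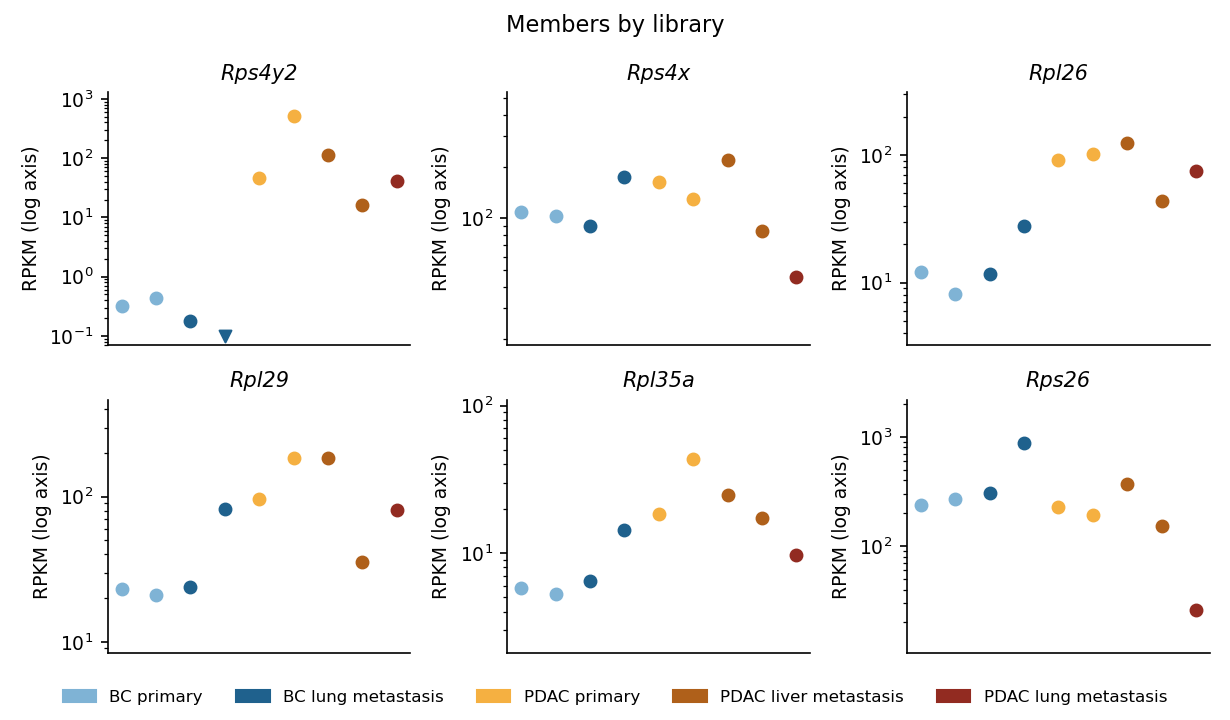
RPKM (log axis, each panel with its own range) of 6 members in the 9 libraries, ordered as the primaries and then the metastases of BC, followed by those of PDAC. Rps4y2 and Rpl26 are higher in all 5 PDAC libraries than in any BC library; the triangle marks the BC lung metastasis in which Rps4y2 is listed at 0.

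To set the family's level aside, each member was read relative to the median member of its library. On this scale 6 of 82 members (7.32%) were higher in every PDAC library than in any BC library, against 2.38% of 12764 genes. Another 6 were lower in every PDAC library, against 3.55% of genes. The scale is set by the members, so it removes their shared shift but not that of other genes. Shares of members and of all genes are therefore not like for like here. Without this centring 2.44% of members were higher and 2.44% lower, against 2.72% and 6.23% of genes. On the relative scale the higher ones were Rps4y2, Rpl26, Rpl29, Rpl35a, Rps14 and Rpl17. Rpl29 made up 0.190% to 0.279% of the family's RPKM in BC and 0.372% to 1.07% in PDAC, and Rpl35a 0.0477% to 0.0535% and 0.117% to 0.251%. Rps14, a protein of the platform of the small subunit, made up 0.969% to 1.94% in BC and 2.10% to 2.93% in PDAC. The lower ones included Rpl15, Rplp1, Rps2, Rps26 and Rpsa. Not all of these were separated in their percent of the family's RPKM. Rpl17 overlapped there, at 0.703% to 0.9397% in BC and 0.9225% to 2.215% in PDAC. So did Rplp1, at 4.40% to 7.72% in BC and 2.80% to 4.50% in PDAC. Rps26 made up 2.22% to 2.97% in BC and 0.32% to 1.83% in PDAC, and Rpsa, which doubles as a laminin receptor precursor, 1.71% to 2.02% and 0.455% to 1.33%. By limma on this scale only Rps4y2 passed (6.14 ± 0.97, n = 5 against 4; adjusted p = 0.00936; 0.818% of genes passed; with the replicate block 5.94, adjusted p = 0.0568), and Rpl26 did not (2.65 ± 0.61; adjusted p = 0.0616). At an unadjusted p under 0.05 there were 6 members, against 11.3% of genes. No member passed within a model: 0 of 82 in BC lung, PDAC liver and PDAC lung and in the primary comparison, where 0%, 0%, 0.00779% and 0.0468% of genes did. At an unadjusted p under 0.05 the counts were 0, 0, 2 and 3 members, against 0.764%, 3.55%, 9.38% and 7.73% of genes.

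The stalk proteins, which form the arm that activates elongation factors, shared the family's pattern with Rplp1 as the most variable. With the libraries ordered as BC primaries 1 and 5, BC lung 4 and 6, PDAC primaries 1 and 5, PDAC liver 1 and 5 and PDAC lung, Rplp0 measured 336, 243, 302, 712, 535, 492, 898, 275 and 219 RPKM. Rplp2 measured 96.9, 87.1, 131, 350, 162, 172, 226, 121 and 99.4 RPKM. Rplp1 in PDAC alone measured 439, 785, 802, 361 and 261 RPKM. Its share of the family was 7.72% in BC lung metastasis 6 and 2.80% to 6.11% in the other libraries. None of the 3 passed a comparison, with a smallest limma adjusted p of 0.4 for Rplp1 over all sites.

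Rpl5 and Rpl11 form with 5S RNA the complex that binds MDM2 and stabilises p53 when ribosome assembly fails. In the order used above, Rpl5 was at 33.8, 25.7, 22.4, 42.1, 50.3, 43.8, 69.0, 12.9 and 17.3 RPKM. Rpl11 was at 35.2, 39.2, 41.9, 72.7, 48.0, 49.1, 78.0, 28.0 and 33.4 RPKM. Both were highest in PDAC liver metastasis 1 and lowest in PDAC liver metastasis 5, and neither passed in any comparison (smallest limma adjusted p 0.651 and 0.811).

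Small subunit proteins with further roles were mostly highest in BC lung metastasis 6 and lowest in the PDAC lung metastasis. Rps6, the substrate of S6 kinase, measured 111, 98.0, 94.5, 242, 149, 115, 161, 72.7 and 53.0 RPKM in that order, and passed nowhere (smallest limma adjusted p 0.571). Rps3, which also acts in DNA repair, ranged less in BC (63.3 to 86.6 RPKM) than in PDAC (32.7 to 132 RPKM). Rps27a, made as a fusion with ubiquitin, was at 57.0 to 94.7 RPKM in 8 libraries and at 216 RPKM in BC lung metastasis 6. Rpsa was at 210 to 220 RPKM in 3 BC libraries and 504 RPKM in BC lung metastasis 6, at 122 to 251 RPKM in PDAC primaries and liver metastases, and lowest in PDAC lung with 37.4 RPKM. Its PDAC lung difference was -2.27 ± 0.79 (n = 1 against 2; limma adjusted p = 0.238). Of large subunit genes, Rpl10, which completes subunit maturation, was at 340 RPKM in BC lung metastasis 6 and 30.4 RPKM in the PDAC lung metastasis and at 89.9 to 161 RPKM elsewhere (PDAC lung -2.12 ± 0.81; limma adjusted p = 0.281). Rpl41, the smallest ribosomal protein, measured 203 to 454 RPKM in 8 libraries and 868 RPKM in BC lung metastasis 6. Rps19 and Rpl13a measured 41.7 to 49.7 RPKM and 87.2 to 103 RPKM in 3 BC libraries, and BC lung metastasis 6 was again the highest of BC with 102 and 163 RPKM.

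Paralogs did not follow their parents in every case. Rpl22l1 was at 24.2 to 104 RPKM and made up 37.7% to 83.0% of the sum with Rpl22, lowest in PDAC primary 5 and highest in the PDAC lung metastasis. Rps27l made up 37.6% to 49.7% of the sum with Rps27 in BC and 13.4% to 38.5% in PDAC, lowest in PDAC primary 1. Rpl7l1 made up 32.2% to 49.8% of the sum with Rpl7 in BC and 6.93% to 37.0% in PDAC. Its level was highest in BC primary 1 (75.2 RPKM) and lowest in PDAC liver metastasis 1 (14.7 RPKM), and over all sites its difference was -1.05 ± 0.55 (n = 5 against 4; limma adjusted p = 0.309). Rpl3l was at 0.131 RPKM or less in the BC libraries and at 3.21, 4.57 and 13.7 RPKM in PDAC liver metastases 5 and 1 and the PDAC lung metastasis, up to 16.1% of the sum with Rpl3. Rpl39l and Rpl10l, paralogs of male germ cells, did not pass the filter: Rpl39l reached 1.22 RPKM in PDAC liver metastasis 5 and Rpl10l 0.383 RPKM in the PDAC lung metastasis, and 5 and 8 libraries listed them at 0. Rpl36al, which the naming rule leaves out, was at 37.2 to 170 RPKM and made up 60.5% to 87.5% of the sum with Rpl36a. The coding sequences of these pairs were 63.4% to 87.7% identical, which bears on how reads could be shared between them.

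Core genes with a TOP start at the listed base had medians of 0.83 in BC lung, -0.26 in PDAC liver, -1.22 in PDAC lung and 0.78 between the primaries. The 44 core genes with a listed start but no TOP run at that base had 0.66, -0.09, -1.07 and 0.46. Within 5 bases of a listed start 27 core genes held a run, so some of these 44 may be TOP genes. The 13 TOP genes were all positive in BC lung and all negative in PDAC lung, as were 43 and 38 of the other 44.

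Other genes of the translation machinery were read from lists of known members. In BC lung the 76 mitochondrial ribosomal protein genes had 68 positive differences and a median of 0.75, as large as that of the cytosolic family. The 10 elongation factor genes tested had a median of 0.33 and the 28 initiation factor genes -0.14. The 54 tested genes of ribosome biogenesis and rRNA transcription had 13 positive differences and a median of -0.66. The medians of these genes and of the ribosomal proteins lay on opposite sides of the all-gene median of -0.29. In the 2 genes with the largest differences metastasis 6 was far below metastasis 4. Rrs1 was at 55.7 and 51.8 RPKM in primaries 1 and 5 and at 49.25 and 0.0105 RPKM in metastases 4 and 6. Riok2 was at 19.4 and 11.5 RPKM in the primaries, 9.71 RPKM in metastasis 4 and listed at 0 in metastasis 6. Metastasis 6 is among the libraries with the fewest genes listed, and its part in the median of -0.66 was not tested. Between the primaries 7 of these 54 were higher in PDAC (median -1.67), with Nop2, an rRNA methyltransferase, at 42.6 and 36.2 RPKM in BC against 16.4 RPKM and listed at 0 in PDAC primaries 1 and 5. Fbl, which methylates rRNA in the nucleolus, was at 88.3 and 76.3 against 19.4 and 2.72 RPKM (-3.25 ± 0.96, n = 2 against 2; limma adjusted p = 0.23). PDAC primary 5 was the lower in both genes and is among the libraries with the fewest genes listed. No gene of these lists passed in BC lung, PDAC liver or the primary comparison, and in PDAC lung 1 mitochondrial gene was lower. Myc, the transcription factor that drives ribosomal genes, measured 152 and 95.5 RPKM in BC primaries, 95.7 and 5.30 RPKM in metastases 4 and 6 of BC, and 32.4 to 136 RPKM in PDAC (BC lung -2.30 ± 1.09, n = 2 against 2; limma adjusted p = 0.974). Its lowest library was the one with the highest family sum. Eef1g, a subunit of the complex that reloads elongation factor eEF1A with GTP, measured 68.1 and 52.0 RPKM in the PDAC primaries, and 0.271 RPKM in PDAC lung (-5.57 ± 1.10, n = 1 against 2; limma adjusted p = 0.0594).

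Over both models no member passed between metastases and primaries (0.00779% of genes did). At an unadjusted p under 0.05 there was 1 member, against 4.89% of genes. The median was 0.05, with -0.13 on a common distribution and -0.37 after rescaling to the same total without haemoglobin genes. No member was separated between 5 metastases and 4 primaries (0.366% of genes higher and 0.538% lower). The metastasis effect of PDAC liver minus that of BC lung was negative for 79 of 82 members, with a median of -0.92 against 0.53 for all genes. No member passed this test of the difference (0% of genes; 0 members at an unadjusted p under 0.05 against 4.13% of genes). Relative to the family 0 members passed in either test, and 0 had an unadjusted p under 0.05, against 2.82% of genes for the difference and 2.09% for the pooled comparison. The member with the largest difference of effects, unscaled, was Rps15 (-2.13 ± 1.04; limma adjusted p = 0.874). Without BC lung metastasis 6 the median was -0.32 and without PDAC liver metastasis 5 it was -0.30, so its size rested on 1 library of each group.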

How the data were processed

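Values were RPKM per gene for 9 libraries in 1 deposited table; the file is named for CPM, but low values are whole read counts (within 0.02 of a read) only after division by gene length, for 62.6% to 74.3% of them against 4.28% to 5.23% without. Libraries were made with SMART-seq v4 and Nextera XT, per the labels' protocols, which keep no strand, so reads of overlapping antisense genes cannot be told apart. Per the submitters' processing notes, reads were placed on mm9. Neither aligner nor counter nor annotation is named (not given in the sources used here). This mm9 table was joined by identifier to GENCODE M21 and RefSeq of GRCm38.p6 for lengths and sequences only.

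Genes at 1 RPKM or more in at least 2 libraries (12832, with 82 of 84 members) were tested as log2(RPKM + 1), which understates changes of low genes, with limma 3.58.1 in R 4.3.3 (trend and robust moderation, Benjamini-Hochberg over all genes, 5 group means, 4 residual degrees of freedom). The comparisons over both models used a fit with model and metastasis as terms (6). No group has more than 2 libraries. The 2 libraries of the PDAC primary and liver groups differ in genotype and age, so they came from different mice. Their spread includes that difference. Nothing in the labels says that the 2 libraries of a BC group came from separate mice. Same-numbered PDAC libraries share genotype and age, and whether they came from the same mouse is not stated. The p-values cover only the spread between these libraries. The scripts were first tested on simulated data. Sequences were compared with Biopython 1.88.

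Members, lists and tests were chosen with earlier results of these data known. Named members were those that passed, the 3 largest per direction without overlap and an average of at least 5 RPKM, and a set list of stalk, 5S complex, paralog and other genes. Outside the family the rule took the 5 genes most like the family's median and the 2 largest differences per list. Rpl32, Rpl4, Rps14, Rps15, Rpl17 and Rpl35a were chosen after their values were seen. Some results that the rule names are not reported here. Alternatives were another pseudocount (0.1), no filter, 2 scalings, plain moderation, a replicate block and leaving out libraries. The scalings were a common distribution, and a rescaling of every library to the same total with haemoglobin genes left out. Numbers 1 and 5 in PDAC mark a shared genotype and age in the labels, and the deviations of same-numbered libraries correlated at -0.165.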

Additional observations from a re-analysis of the deposited data

How the results depend on the processing

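Of 161 alternatives, 156 also passed 0 members. They cover the comparisons within a model, between primaries, of metastases with primaries over both models and between the 2 metastasis effects. The comparison over all sites is not among them. In PDAC lung 1 of 84 passed with no filter on low values (1.06% of genes), and 0 to 1 when single libraries were left out, 1 without PDAC primary 1, where 12.6% of genes passed. Between primaries 0 to 1 passed so, again 1 without PDAC primary 1 (6.54% of genes). Relative to the family 1 passed there with no filter (0.262% of genes) and 0 to 1 without single libraries. Over all sites 2 members passed, but 1 with no filter (0.876% of genes) and 1 after rescaling without haemoglobin genes (4.09%). With the replicate block, the PDAC number as a term, 1 passed (1.56%), and without single libraries 1 to 2 did. Relative to the family 1 passed there, but 0 with the replicate block (Rps4y2, limma adjusted p = 0.0568; 0.281% of genes), 2 without the 3 libraries with the fewest genes (2.71%), 2 when centred on the mean (1.14%) and 1 to 2 without single libraries. The block changed no other call.

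Rps15a reversed in PDAC liver to -0.116 after rescaling to the same total without haemoglobin genes. Relative to the family it ranged from -0.00143 (without liver metastasis 5) to 1.13 without single libraries. Rpl8 ranged from -0.798 to 0.06 (without liver metastasis 1) on the same scale. Without the 50 highest other genes the mean family share was 6.12% in BC lung, 3.77% in PDAC liver, 2.47% in PDAC lung and 4.76% in PDAC primaries. The cause of these shifts was not tested. No group had more than 2 libraries, and the between-library SD of the median member was 0.691 (log2). The PDAC numbers were not crossed, since the labels tie each to a genotype and age.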
